A study of Mus musculus with 6 samples.

Results

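Myc, the D cyclins and the genes that carry a fibroblast through G1 were followed in 6 cultures of mouse dermal fibroblasts, 3 control (CTRL) and 3 with stabilized β-catenin (GOF). The 10 genes were chosen by name, with earlier results of these data known. They were Myc, Mycn and Mycl and the D cyclins Ccnd1, Ccnd2 and Ccnd3. With them came the kinases Cdk4 and Cdk6, the pocket protein gene Rb1 and the transcription factor gene E2f1. All 10 were among the 41126 genes of the table and among the 15462 that passed a filter on low counts. The cultures were ventral dermal fibroblasts of mice of mixed CD1 and C57Bl6 strain, harvested at postnatal day 4 by the labels. GOF cultures carried 1 Ctnnb1 Δex3 allele, from which Adenovirus-Cre removes the exon that marks β-catenin for degradation, and CTRL cultures received Adenovirus-GFP, so that virus and β-catenin cannot be told apart between the groups. By the labels the controls are +/+, whereas the study describes the same transgene in them, and the treatment field gives adCre at 366 to 500 MOI for 6 h for every culture. CTRL 0 and GOF 2 came from the same animal, CTRL 2 and GOF 0 from another, and CTRL 1 and GOF 1 from 1 animal each.

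In G1, D cyclins bind and switch on Cdk4 and Cdk6, which phosphorylate the Rb1 protein and so release E2F factors to transcribe genes of DNA replication. Myc proteins pair with Max on E-box sequences and drive genes of growth and of ribosome assembly. CDK inhibitors of the Ink4 type block Cdk4 and Cdk6 themselves. Myc and Ccnd1 are textbook targets of β-catenin and its TCF/LEF partners in intestinal epithelium.

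Values are FPKM, fragments scaled by transcript length and library size, from the authors' table, and fold changes come from edgeR's quasi-likelihood test on the authors' fragments per gene. A gene was called where the Benjamini-Hochberg adjusted p was under 0.05 and the fold change over 2. Libraries held 35980831 to 42834467 fragments. Axin2, the feedback gene that reads out β-catenin, rose in GOF from at most 0.177 to at least 14.4 FPKM, and Ctnnb1 as a whole did not differ beyond its spread (log2 fold change -0.05, adjusted p = 0.844). Fibroblast markers summed to 3161 to 4161 FPKM in CTRL and 2625 to 3188 FPKM in GOF. Of 10, 3 were called lower (1 to 3 with a library left out in turn) and 0 higher, against 5.64% and 6.69% of all tested genes. At an adjusted p under 0.05 and any fold change, 1 of them was higher. All 8 keratinocyte markers stayed under 1 FPKM, as did 4 of 7 endothelial, 3 of 7 leukocyte, 5 of 7 melanocyte and Schwann cell, 4 of 5 adipocyte, 5 of 7 muscle and none of 6 pericyte markers. Muscle markers summed to 23.3 to 27.6 FPKM in CTRL and 138 to 172.5 in GOF, nearly all of it Acta1, with Myod1 at 0 to 0.0158 FPKM and Pax7 at 0. Adipocyte markers summed to 7.18 to 8.95 FPKM in CTRL and 1.80 to 3.17 in GOF, nearly all of it Fabp4, which was called lower. Of the leukocyte markers Csf1r was called higher, and of the endothelial ones Kdr higher and Tek lower (not so without GOF replicate 0). The part of these markers in the results was not tested.

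Promoter windows from RefSeq (GRCm38.p6, 250 bases before to 50 after the start) were at hand for 6 of the 10 genes: Mycn, Mycl, Ccnd3, Cdk4, Cdk6 and E2f1. They were searched on both strands for the core of TCF/LEF sites in its forms CTTTGA or CTTTGT, for the E-box CACGTG, and for TTTGGCG, the core of the classical E2F site. No match overlapped another. Of 32817 windows of all genes, 31.2% held the first, 7.15% the second and 1.57% the third. The stretches below hold matches before the start of the window's transcript and outside annotated exons, in capitals. They show which of these windows carry an E-box, the sequence that Myc and Max read.
Cdk4: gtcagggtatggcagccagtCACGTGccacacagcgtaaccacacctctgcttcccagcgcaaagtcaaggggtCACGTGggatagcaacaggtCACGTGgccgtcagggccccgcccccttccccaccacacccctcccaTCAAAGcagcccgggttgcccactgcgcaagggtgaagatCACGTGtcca
Cdk6: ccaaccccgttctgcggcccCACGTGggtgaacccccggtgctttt
Mycn: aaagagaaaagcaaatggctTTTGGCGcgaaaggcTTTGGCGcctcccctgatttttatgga
Ccnd3: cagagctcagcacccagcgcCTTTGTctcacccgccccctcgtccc
The Cdk4 stretch lies at chr10:127063343-127063533 on the plus strand. Its 4 E-boxes begin 172, 118, 98 and 11 bases before the start, and TCAAAG, the TCF/LEF core read from the other strand, 51 bases before it. Only 8 of the 32817 windows (0.0244%) held as many E-boxes. Cdk6, at chr5:3343653-3343698 on the plus strand, had 1 E-box, and lies within the annotated gene, after the first exon of its most upstream transcript. Mycn, at chr12:12941978-12942039 on the minus strand, had 2 E2F matches and a TCF/LEF core nearer the start. Ccnd3, at chr17:47505002-47505047 on the plus strand, had a TCF/LEF core 29 bases before the first of its starts and another after it. The windows of Mycl and E2f1 held none of the motifs in the forms searched. Both windows lie within the annotated gene, so the bases before its outermost annotated start were not searched. Other forms of the E2F site were not searched in any window. These matches are letters in a window and not measured sites.

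Among the 10 genes, Mycl and Ccnd1 were called higher in GOF, 2 of 10 against 6.69% of all tested genes, and 0 of 10 were called lower, against 5.64%. Counted in either direction, 12.3% of all tested genes were called. At an unadjusted p under 0.05, edgeR put 1 gene lower, Cdk4, and DESeq2 also called 2 genes, none of them lower. With an adjusted p under 0.05 at any fold change, 4 of 10 passed, Mycl, Ccnd1, Cdk4 and Rb1, against 21.2% of all tested genes. FPKM did not overlap between the groups for Mycl, Ccnd1 and Cdk4, 3 of 10 against 39.5%. The median log2 fold change of the 10 was 0.38, and that of all tested genes -0.02.

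**Figure D1:**
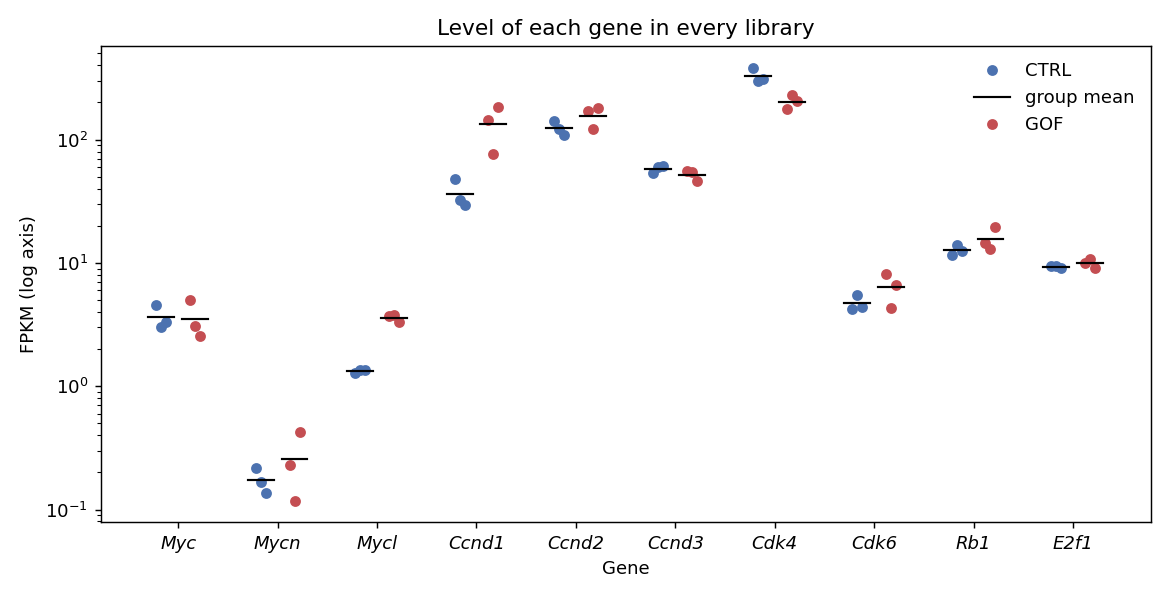
FPKM of each gene in every library on a log axis, with 3 CTRL (blue) and 3 GOF (red) points a gene in the order of replicates 0, 1 and 2, and a line at each group mean. The red points sit clear of the blue ones for Mycl and Ccnd1 (above) and Cdk4 (below), and overlap them or lie among them for the other genes.

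In CTRL the levels ran, per unit length, from Cdk4 at 330.1 FPKM through Ccnd2 (123.5), Ccnd3 (58.2), Ccnd1 (36.5), Rb1 (12.7), E2f1 (9.35), Cdk6 (4.71), Myc (3.62) and Mycl (1.33) to Mycn (0.173). Cdk6 and Myc were the only neighbours in this order whose ranges overlapped. In GOF Ccnd1 (134.1) came before Ccnd3 (52.0), and the ranges of Cdk4 (203.5) and Ccnd2 (156.7), of Ccnd2 and Ccnd1, and of Mycl (3.58) and Myc (3.53) overlapped.

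Of the Myc genes, which encode the basic helix-loop-helix partners of Max, Mycl rose and the others did not pass the test. Mycl, on chromosome 4 from 122995652 to 123002485, was at 1.29, 1.36 and 1.36 FPKM in CTRL and at 3.70, 3.76 and 3.29 FPKM in GOF. Every GOF library lay well above every CTRL library, and neither group spread much. Its log2 fold change was 1.40 (standard error, SE, 0.15, adjusted p = 0.000986 from edgeR, 1.36 to 1.43 with a library left out in turn). Within the animals that gave both cultures, Mycl was 2.56 and 2.73 times higher in the GOF culture. On the scale of log2(FPKM + 1), which compresses low values, the difference was 0.97 and fell short of the fold threshold, with adjusted p = 0.00176 from limma.

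Myc, the founding member, lies on chromosome 15 from 61985391 to 61990374. It was at 4.53, 3.02 and 3.32 FPKM in CTRL and at 4.96, 3.07 and 2.57 FPKM in GOF. In each group replicate 0 was highest, and the groups overlapped. Its log2 fold change was -0.03 (SE 0.27, 95% confidence interval -0.67 to 0.60, adjusted p = 0.946). The animals differed in direction, with the GOF culture at 0.567 times its CTRL culture in one and at 1.49 times in the other. The sign of the Myc difference also turned when CTRL replicate 0 (0.16), GOF replicate 1 (0.04) or GOF replicate 2 (0.14) was left out. Pvt1, the noncoding gene next to Myc, was between 14.8 and 26.5 FPKM in CTRL and between 13.8 and 29.1 in GOF (log2 fold change 0.09, adjusted p = 0.849).

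Mycn, best known from neural and limb progenitors, lies on chromosome 12 from 12936093 to 12941914 and was near the limit of detection. It had 14, 12 and 13 fragments in CTRL and 21, 10 and 35 in GOF, which are 0.216, 0.166 and 0.136 FPKM against 0.228, 0.118 and 0.429 FPKM. GOF 2 stood above all other libraries and GOF 1 below them. The log2 fold change of 0.69 (SE 0.47, adjusted p = 0.341) did not pass at this depth.

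The 3 Myc genes summed to 5.13 ± 0.795 FPKM in CTRL and 7.37 ± 1.35 FPKM in GOF (SD, n = 3 each). The Mycl share of that sum was 26.5% ± 4.53 in CTRL and 49.4% ± 6.72 in GOF, while the Myc share was 70.2% ± 4.45 in CTRL and 46.95% ± 7.83 in GOF (SD, n = 3 each). The groups did not overlap in either share (two-sided exact permutation p = 0.1, the lowest that groups of 3 can give). The shares make up a whole, so the rise of one and the fall of the other are not separate results. These sums and shares of the Myc genes were chosen after the values were seen.

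The D cyclins differ in which signals they answer and share their kinases. Ccnd1, on chromosome 7 from 144929931 to 144939925, was at 47.8, 32.1 and 29.6 FPKM in CTRL and at 143, 76.7 and 183 FPKM in GOF. All GOF libraries were higher, but GOF 1 much less so than the other two. The log2 fold change was 1.86 (SE 0.34, 95% confidence interval 1.07 to 2.66, adjusted p = 0.00877), and 1.58 to 2.15 with a library left out in turn. The GOF culture of an animal held 3.82 and 4.83 times the Ccnd1 FPKM of its CTRL culture.

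Ccnd2, the D cyclin with the highest mean FPKM in both groups, was at 141, 121 and 108 FPKM in CTRL and at 169, 121 and 180 FPKM in GOF. GOF 1 matched a CTRL library and the other two exceeded all of them. Its log2 fold change of 0.33 (SE 0.19, adjusted p = 0.268) did not pass. Ccnd3 was at 53.6, 59.7 and 61.2 FPKM in CTRL and at 55.6, 54.5 and 45.8 FPKM in GOF, a log2 fold change of -0.14 (SE 0.11, adjusted p = 0.420). The Ccnd3 groups overlapped. Ccnd2 lies on chromosome 6 from 127125162 to 127152193 and Ccnd3 on chromosome 17 from 47505051 to 47599691.

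The make-up of the D cyclin pool differed between the groups. Summed D cyclin FPKM was 218 ± 22.1 in CTRL and 343 ± 81.0 in GOF (SD, n = 3 each). Ccnd1 made up 19.7%, 15.1% and 14.9% of it in CTRL and 38.9%, 30.4% and 44.7% in GOF. The mean share of Ccnd2 was 56.5% ± 1.93 in CTRL and 46.0% ± 1.95 in GOF, and that of Ccnd3 27.0% ± 4.41 and 16.0% ± 5.27 (SD, n = 3 each). None of these shares overlapped between the groups (two-sided exact permutation p = 0.1 for each, the lowest possible). These shares, too, make up a whole, so the rise of Ccnd1 and the falls of the others are not separate results. On CPM, counts scaled to library size but not to length, the Ccnd3 share overlapped between the groups, with a difference of -3.33 percentage points (exact permutation p = 0.2).

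**Figure D2:**
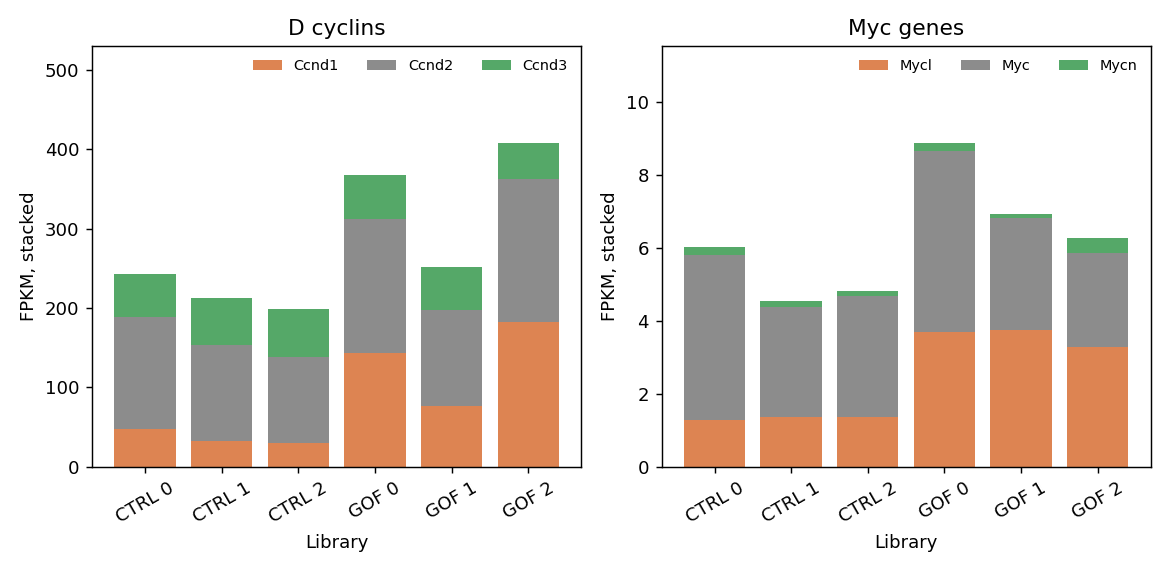
Stacked FPKM of the D cyclins (left) and of the Myc genes (right) in each library, CTRL 0 to 2 and GOF 0 to 2. The Ccnd1 part is tallest in GOF 2 (183 FPKM) and GOF 0 (143 FPKM), and the Mycl part is at 3.29 to 3.76 FPKM in GOF against 1.29 to 1.36 in CTRL.

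Cdk4 and Cdk6 are the catalytic partners of the D cyclins. Cdk4, on chromosome 10 from 127063534 to 127067920, the gene with 4 E-boxes in its window, was at 384, 297 and 310 FPKM in CTRL and at 176, 231 and 204 FPKM in GOF. Every GOF library was below every CTRL library. The log2 fold change was -0.76 (SE 0.16, adjusted p = 0.0132), short of the fold threshold, and without GOF replicate 0 it was -0.68 with adjusted p = 0.0665. The GOF culture held 0.532 and 0.567 times the Cdk4 FPKM of the CTRL culture from the same animal. In a culture, fewer cells that express a gene and less RNA per cell cannot be told apart.

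Cdk6, on chromosome 5 from 3341485 to 3531008, was at 4.25, 5.49 and 4.39 FPKM in CTRL and at 8.11, 4.34 and 6.64 FPKM in GOF. GOF 1 fell within the CTRL range, and the log2 fold change of 0.43 (SE 0.25, adjusted p = 0.261) did not pass. The GOF cultures of the paired animals held 1.56 and 1.85 times the FPKM of their CTRL cultures. With the animal as a block, the log2 fold change of Cdk6 was 0.74 (adjusted p = 0.0307). In that fit the group difference comes only from the 2 animals that gave both cultures. CTRL 1 and GOF 1, each alone in its animal, do not add to it. Passing in that fit at an adjusted p under 0.05 at any fold change were 5 of the 10 genes, against 21.4% of all tested genes.

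Per unit length, the D cyclins together were below their kinases in CTRL and above them in GOF. The ratio of summed D cyclin FPKM to summed Cdk4 and Cdk6 FPKM was 0.625, 0.704 and 0.634 in CTRL and 2.005, 1.07 and 1.94 in GOF (two-sided exact permutation p = 0.1, the lowest possible). This ratio, too, was chosen after the values were seen.

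**Figure D3:**
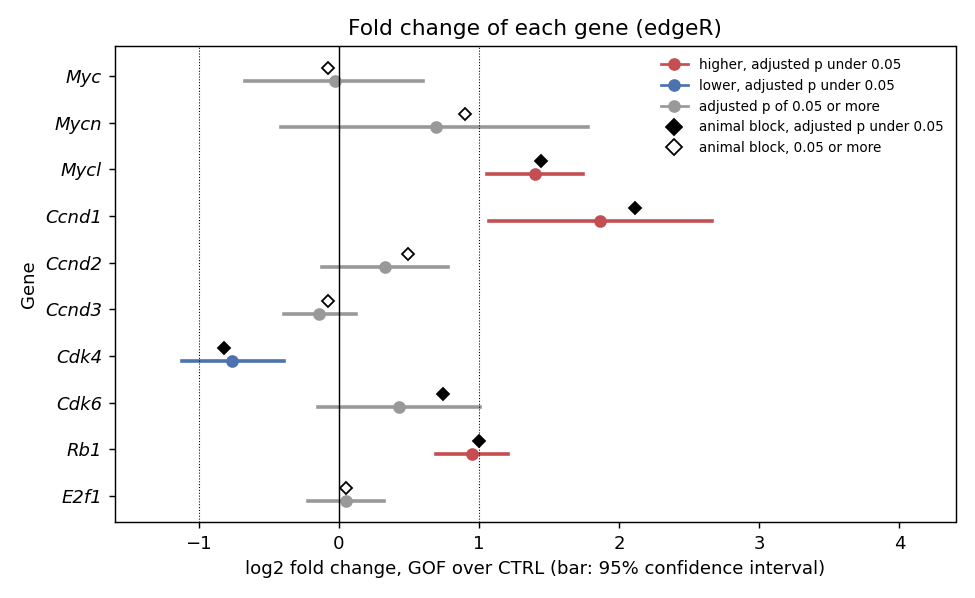
Log2 fold change of each gene, GOF over CTRL, from edgeR on fragments, as a point with its 95% confidence interval, red or blue where the adjusted p is under 0.05. Diamonds give the fit with the animal as a block, filled where its adjusted p is under 0.05; Mycl (1.40), Ccnd1 (1.86), Rb1 (0.95) and Cdk4 (-0.76) carry colour, and Cdk6 has a filled diamond only.

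Rb1 encodes the pocket protein that holds E2F factors in check, and its change depended on the unit. On chromosome 14 from 73183673 to 73325822, it had 1254, 1507 and 1496 fragments in CTRL and 2804, 2567 and 3136 in GOF. Every GOF library held more fragments than every CTRL library, for a log2 fold change of 0.95 (SE 0.11, adjusted p = 0.00152). In FPKM, however, Rb1 was at 11.6, 14.0 and 12.4 in CTRL and at 14.5, 12.9 and 19.7 in GOF, and the groups overlapped. limma on log2(FPKM + 1) gave a difference of 0.27 (adjusted p = 0.302).

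The fragments counted for each unit of FPKM, relative to the median gene of the library, were 1.13, 0.943 and 1.10 for Rb1 in CTRL and 1.75, 1.87 and 1.46 in GOF. The geometric mean in GOF was 1.60 times that in CTRL, and of 12356 genes compared 0.0728% differed more between the groups. The genes compared were detected in every library and had a mean of at least 1 FPKM in a group. For the other members measured, the ratio of group means was between 0.979 and 1.035, and the groups overlapped. GENCODE lists 6 Rb1 transcripts of 324 to 4656 bases, and values per transcript were not analysed here. Lpar6, which encodes a receptor for lysophosphatidic acid and overlaps Rb1 on the opposite strand, had 739 to 829 fragments in CTRL and 1107 to 1481 in GOF (log2 fold change 0.62, adjusted p = 0.0287). Rcbtb2, on the opposite strand as well, went from 1999 to 2112 down to 1225 to 1419 fragments (log2 fold change -0.66, adjusted p = 0.0101). The libraries were stranded, but whether counting used the strand is not given in the sources used here, so fragments of Rb1 and of these genes may not be fully apart, and their part in the Rb1 values was not tested. Opposite-strand genes also overlap Ccnd1, Ccnd2, Ccnd3 and Cdk4. Tspan31, over Cdk4, was at 85.8 to 109 FPKM in CTRL and 106 to 119 FPKM in GOF (log2 fold change 0.23, adjusted p = 0.261).

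**Figure D4:**
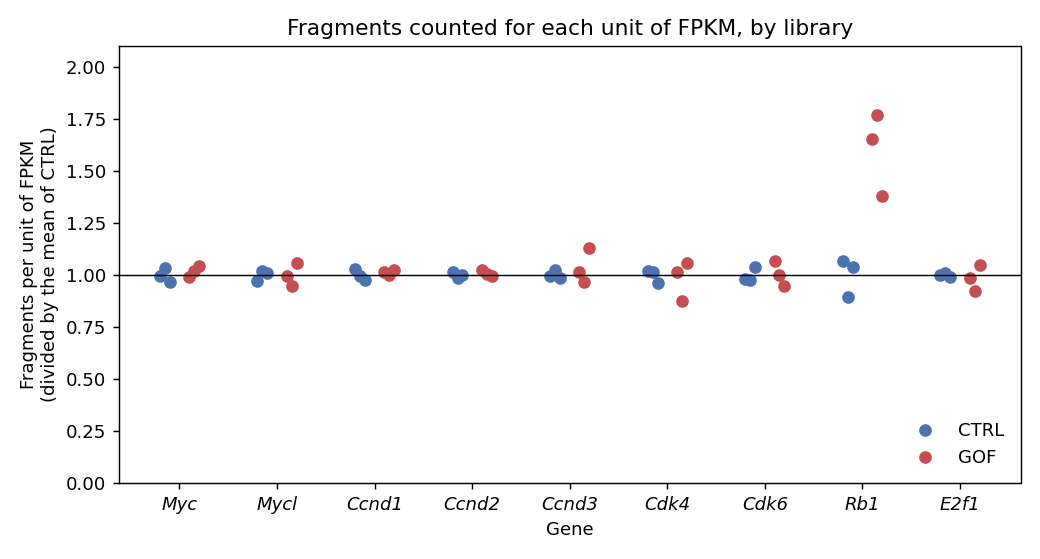
Fragments per unit of FPKM for 9 of the 10 genes in every library, divided by the mean of the 3 CTRL libraries, with CTRL in blue and GOF in red. Rb1 in GOF stands apart from all other points, and the remaining genes stay near 1. Mycn, with a mean under 1 FPKM in both groups, is left out.

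E2f1, the activating E2F that Rb1 binds, differed little. On chromosome 2 from 154559407 to 154569892, it was at 9.50, 9.49 and 9.05 FPKM in CTRL and at 9.92, 10.8 and 9.17 FPKM in GOF. The groups overlapped, with a log2 fold change of 0.05 (SE 0.12, 95% confidence interval -0.22 to 0.32, adjusted p = 0.801). With upper-quartile normalization the sign turned, at -0.01.

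Around the 10 genes, 8 lists with 118 genes of the same pathway were read, also chosen with earlier results of these data known. Among 12 other pocket proteins and E2F-DP factors, 1 passed an adjusted p under 0.05, where 21.2% of all tested genes passed. That gene, E2f6, a repressor of the family, rose. It went from 15.5 to 18.8 FPKM in CTRL to 33.4 to 36.2 FPKM in GOF (log2 fold change 0.96, adjusted p = 0.00178), which left it under the fold threshold. The pocket protein genes Rbl1 (-0.18) and Rbl2 (-0.44), the activators E2f2 (-0.49) and E2f3 (0.14), the repressors E2f4 (0.45), E2f5 (0.15), E2f7 (-0.52) and E2f8 (0.44), the dimer partners Tfdp1 (-0.02) and Tfdp2 (-0.34), and Lin54 (0.13), with log2 fold changes in brackets, had adjusted p-values of 0.0659 or more.

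Target genes of E2F lay mostly on the lower side. Of 31 genes of S-phase entry, 7 were called lower and 0 higher, in DESeq2 also 7 and 0, against 5.64% and 6.69% of all tested genes. At an unadjusted p under 0.05, 20 were lower and 0 higher. Their median log2 fold change was -0.53, and 29 of 31 had a negative one. Uhrf1, which recruits maintenance methylation to new DNA, went from 4.54 to 6.60 FPKM in CTRL to 1.66 to 1.86 FPKM in GOF (log2 fold change -1.63, adjusted p = 0.0018). For Tk1, the thymidine kinase, it was -1.55 (adjusted p = 0.00784). For Mcm10, which helps to fire replication origins, it was -1.17 (adjusted p = 0.00819). The number called lower was 4 without CTRL replicate 0 or GOF replicate 0, and 2 in limma on log2(FPKM + 1). In all, 10 were lower at an adjusted p under 0.05 and any fold, and 14 with the animal as a block.

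Of 8 genes of cyclin E, cyclin A, Cdk2 and activators of CDKs, 1 was called lower and 0 higher, against 5.64% and 6.69% of all tested genes. The gene called was Ccna2, which acts in S phase and after it (log2 fold change -1.04, adjusted p = 0.0186). It lost the call when GOF replicate 0 (adjusted p = 0.0834) or GOF replicate 1 (adjusted p = 0.0511) was left out, and fell short of the fold threshold without CTRL replicate 0 (-0.73). Of 10 markers of dividing cells, 8 were called lower and 0 higher, against 5.64% and 6.69% of all tested genes. DESeq2 also gave 8 and 0, and at an unadjusted p under 0.05 all 10 were lower. With a library left out in turn, 6 to 10 were called lower, 6 of them without GOF replicate 0. Mki67, which marks cycling cells, was at 5.27 to 6.89 FPKM in CTRL and at 1.94 to 2.05 FPKM in GOF (log2 fold change -1.65, adjusted p = 0.000298). Top2a, which untangles DNA, and the mitotic kinase gene Plk1 had log2 fold changes of -1.59 (adjusted p = 0.00223) and -1.44 (adjusted p = 0.00176).

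Myc partners and targets showed few changes. Max, the partner of every Myc protein, was at 36.4 to 41.5 FPKM in CTRL and at 31.7 to 36.8 FPKM in GOF (log2 fold change -0.19, adjusted p = 0.298). Of 10 partners and antagonists tested, 1 was called lower and 0 higher, against 5.64% and 6.69% of all tested genes. The gene called was Mxd3, which competes with Myc for Max, at a log2 fold change of -1.05 (adjusted p = 0.0338). The call of Mxd3 did not hold with any library left out, with adjusted p-values of 0.0506 (without CTRL replicate 2) to 0.116 (without GOF replicate 0). Of 27 Myc target genes of ribosome assembly and nucleotide supply, 2 passed an adjusted p under 0.05, against 21.2% of all tested genes, both higher and neither over 2-fold. Pa2g4, a growth regulator of the nucleolus, was at 22.5 to 26.0 FPKM in CTRL and 39.3 to 45.5 FPKM in GOF (log2 fold change 0.85, adjusted p = 0.0037). Odc1, which makes polyamines, changed by 0.83 on the log2 scale (adjusted p = 0.022), and its adjusted p was 0.0509 to 0.0852 with either GOF replicate 0 or 1 or any CTRL library left out. The median of the 27 was 0.14, and 21 had a positive log2 fold change and 6 a negative one. At an unadjusted p under 0.05 from edgeR, 4 were higher and 1 lower.

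Of 12 genes for the turnover of Myc, cyclin D and cyclin E proteins, 1 rose and 2 fell at an adjusted p under 0.05, where 21.2% of all tested genes passed. Fbxw7, the F-box protein that targets Myc and cyclin E for degradation, went from 6.12 to 8.74 FPKM in CTRL to 10.5 to 21.9 FPKM in GOF (log2 fold change 0.96, adjusted p = 0.0162). Its adjusted p was 0.0567 without CTRL replicate 1 and 0.0507 without GOF replicate 0. With the animal as a block it was called (1.12, adjusted p = 0.0126), and Fbxo4, of another F-box protein for cyclin D1, also passed the adjusted p, as lower (-0.70, adjusted p = 0.0261). Fbxo31, which targets cyclin D1, changed by -0.88 on the log2 scale (adjusted p = 0.00562). Cks1b, a cofactor in the degradation of the Cdkn1b protein, changed by -0.65 (adjusted p = 0.0252), which was lost without CTRL replicate 1, GOF replicate 0 or GOF replicate 1 (adjusted p up to 0.102).

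The 7 CDK inhibitors did not share a direction, with 2 called higher and 3 lower, against 6.69% and 5.64% of all tested genes. Of the genes of the Ink4 type, Cdkn2b was called higher (log2 fold change 2.01) and Cdkn2c lower (-1.48). Cdkn2a (1.50, adjusted p = 0.0627) and Cdkn2d (-0.67, adjusted p = 0.105) of that type did not pass. With the animal as a block, a fit that rests on the 2 animals with both cultures, Cdkn2a was at 1.87 (adjusted p = 0.000449). Among the others, Cdkn1a was called higher (1.06), and Cdkn1b and Cdkn1c lower (-1.27 and -1.30). Cdkn1a was under the fold threshold without CTRL replicate 2 (0.94) and without GOF replicate 0 (0.99).

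**Figure D5:**
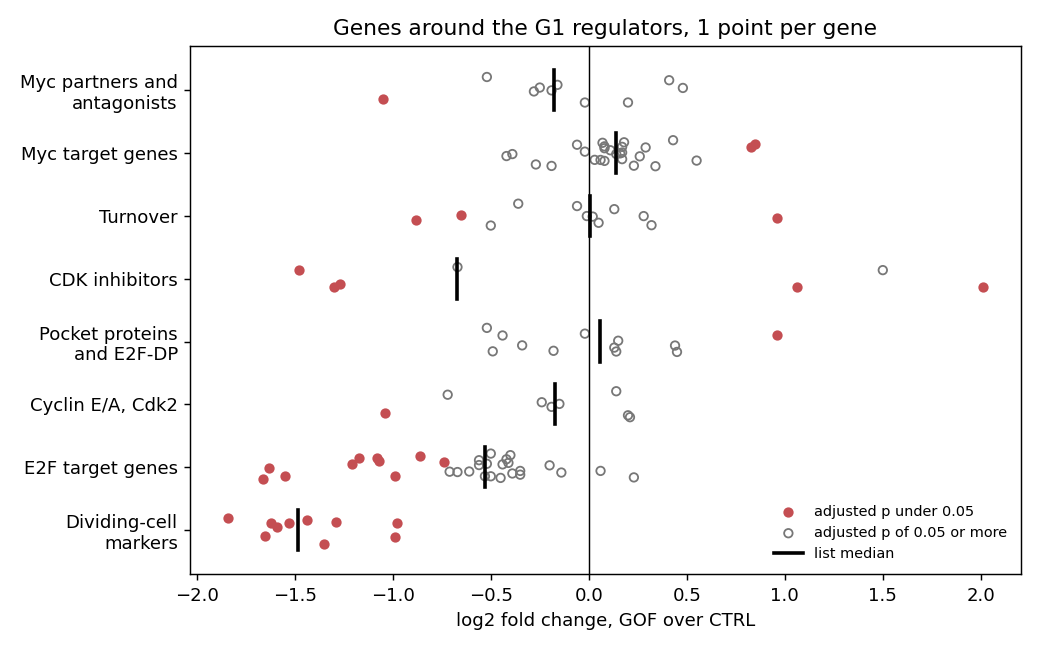
Log2 fold change of each tested gene of 8 lists around the G1 regulators, 1 point a gene, filled where the adjusted p is under 0.05, with a bar at the list median. E2F target genes (median -0.53) lie mostly and dividing-cell markers (median -1.49) all left of 0. Of 27 Myc target genes (median 0.14), 21 lie right of it.

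The genes whose pattern over the 6 libraries was closest to Ccnd1, by the distance of centred log2(FPKM + 1) among 11147 protein-coding genes, were Cdkn2b (distance 0.397), Ildr2 (0.440) and Aif1l (0.495). Cdkn2b was at 43.5, 27.5 and 23.1 FPKM in CTRL and at 115, 78.4 and 194 FPKM in GOF, so that, as for Ccnd1, GOF 2 was highest and GOF 1 the lowest of its group. Myc was closest to Zfp991 (0.193), Rnf44 (0.215) and Nlgn2 (0.247), and E2f1 to Ubox5 (0.0692), Kti12 (0.101) and Slc15a4 (0.106). The libraries of paired animals share their source, and no test was made of these distances.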

How the data were processed

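Stranded paired-end reads were aligned by the authors with TopHat to mm10 and quantified with Cuffdiff (versions, annotation and strand setting not given in the sources used here). The deposited estimated counts are unscaled fragments per gene and library as Cuffdiff gave them to the authors, here rounded (4.95% of values were not whole). The deposited FPKM were scaled by Cuffdiff for transcript length and between libraries. The lncRNA table and 3 other columns with a value per library went unused, and 32 genes with a failed estimate, none of them described here, were left out. Identifiers were matched to GENCODE M21 (97.9%).

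Fragments were tested over all genes in R 4.3.3 with edgeR 4.0.16 (TMM, filterByExpr, quasi-likelihood test, Benjamini-Hochberg adjustment). FPKM were compared with the exact permutation test. Depth was 35980831 to 42834467 fragments, so genes with few fragments carry the larger counting error. On data simulated for this comparison over 15462 genes, 164 of 200 genes changed by 2 on the log2 scale and 9 unchanged genes were called among 15247 tested. The simulation held changes of this size only and no shared animals, so it does not show how often smaller changes are missed. Alternatives were DESeq2 1.42.0, upper-quartile normalization, library totals, no count filter, FPKM of at least 1 in 3 libraries, limma 3.58.1 on log2(FPKM + 1) and log2(FPKM + 0.1), a replicate block by animal, another by label number, and leaving out each library. Tables were read in R with data.table (version 1.17.8) and in Python 3.11.15, pandas 2.3.3 and scipy 1.17.1.

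Groups came from the labels. Cultures of the same animal deviated from their group means together (r = 0.408 and 0.46 over 15462 genes), whereas those with the same label number did not (r = -0.41, 0.0539 and -0.441), so the labelled animal pairs samples. P-values set the group difference against the spread between these cultures. The main edgeR fit and the permutation tests took the 6 libraries as independent, so their p-values leave this pairing out. Only the fit with the animal as a block used it, and its group difference comes only from the 2 animals that gave both cultures. The members and lists were chosen with earlier results of these data known. Genes named are the 10 members, Axin2, Ctnnb1 and Mki67, up to 3 genes a list with the smallest adjusted p under 0.05 and a mean of at least 1 FPKM in a group, every CDK inhibitor, E2F and pocket protein gene, and the 3 nearest patterns to Myc, Ccnd1 and E2f1. Max, Pvt1, Fbxo4, the overlapping genes and the cell type markers named beside them were chosen after their values were seen.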

Additional observations from a re-analysis of the deposited data

How the results depend on the processing

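Of 149 fits of single members under 15 alternatives (Mycn could not be tested with a minimum of 1 FPKM), 140 kept the direction and the side of the threshold at an adjusted p of 0.05. In 4 the sign turned: Myc was at 0.16, 0.04 and 0.14 without CTRL replicate 0, GOF replicate 1 and GOF replicate 2, and E2f1 at -0.01 with upper-quartile normalization. In 4 the adjusted p no longer passed: Rb1 in both limma fits on FPKM (0.27 and 0.29), and Cdk4 without GOF replicate 0 and with the replicate block by label number (-0.75, adjusted p = 0.0735). In 1 it newly passed, Cdk6 with the replicate block by animal (0.74). Over leaving out each library, Myc ranged from -0.33 to 0.16. The cause was not tested. The number of members called was 1 with limma on log2(FPKM + 1), where Mycl fell short of the fold threshold because that scale shrinks low values, and 2 in every other alternative, 2 to 2 with a library left out. With the replicate block by animal, 5 members passed the adjusted p, and with the block by label number 3. Over the 8 lists, 2 genes were called higher and 20 lower in the main comparison; the block by animal gave 4 higher, limma on log2(FPKM + 1) 11 lower, and leaving out a library 1 to 4 higher and 13 to 21 lower. The block by animal moved no member or CDK inhibitor across the adjusted p threshold besides Cdk6 and Cdkn2a. The GOF minus CTRL difference in D cyclin share was -10.47 percentage points for Ccnd2 and -10.98 for Ccnd3 on FPKM, and -14.93 and -3.33 on CPM. Mycn, at 10 to 35 fragments, is limited by depth. The median of all tested genes shifted to -0.07 at most.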
